A study of Homo sapiens with 15 samples.

Results

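Endoderm and yolk sac genes were followed here in human embryonic stem cells that were differentiating toward bone in the presence of airborne particles. The group is made up of 8 genes, chosen by name: SOX17, FOXA2, FOXA1, HNF4A, AFP, TTR, APOA1 and CXCR4. Each was found by the Ensembl identifier of its row in the deposited tables, 8 of 60675 genes listed. AFP, APOA1 and CXCR4 passed the filter on low counts, so 3 members were among the 19012 genes tested. The other 5 are described by their counts.

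All libraries came from H9, an established human embryonic stem cell line with the genotype given as WT, and all were collected on day 7. Every culture spent 5 days in medium with 15% serum, in which the cells differentiate without direction, and from day 5 on was given ascorbic acid, β-glycerophosphate and vitamin D3. Exposure to particles began on day 0. FPM_IC25 and FPM_IC50 stand for fine particulate matter at 0.00062 and 1.4 µg/mL, and SRM_IC25 and SRM_IC50 for a NIST standard reference material at 0.003 and 5.9 µg/mL. UNT is the vehicle control, which received DMSO at 0.1%. Each of the 5 groups holds 3 libraries. The labels name the doses by the inhibitory concentration, based on protein, so equal names do not mean equal mass. The series asks how airborne particles alter osteogenic differentiation. All libraries share 1 cell line, and nothing in the labels says that replicates were separate cultures. A p-value here thus sets a difference against the spread of these libraries alone, and that spread may be technical.

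Definitive endoderm, the layer that later forms gut, liver and pancreas, arises when cells receive a strong Nodal or activin signal. SOX17 and the pioneer factor FOXA2 are switched on first in such cells, FOXA1 follows, and the surface receptor CXCR4 is used to sort them. The yolk sac and the fetal liver share a program of secreted proteins under HNF4A and related factors. It includes AFP, the fetal carrier protein of blood, TTR, the carrier of thyroid hormone and of retinol-binding protein, and APOA1, the main protein of high-density lipoprotein. CXCR4 is not restricted to endoderm: it is also found on mesoderm, germ cells, neural progenitors and endothelium.

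The promoter windows of AFP and CXCR4 are shown because these were the 2 members with a called difference. Each runs from 250 bases before to 50 bases after a start site in RefSeq (GRCh38.p14). The set of windows used here covered 4 of the 8 members. That count does not show that the other members lack a RefSeq entry. The AFP window lies on the plus strand at chr4:73435971-73436270 and has a GC content of 33%. The CXCR4 window is the most upstream of the gene's RefSeq windows, lies on the minus strand at chr2:136118100-136118399 and has a GC content of 66.7%. Capitals mark matches to the motifs searched on both strands.
AFP: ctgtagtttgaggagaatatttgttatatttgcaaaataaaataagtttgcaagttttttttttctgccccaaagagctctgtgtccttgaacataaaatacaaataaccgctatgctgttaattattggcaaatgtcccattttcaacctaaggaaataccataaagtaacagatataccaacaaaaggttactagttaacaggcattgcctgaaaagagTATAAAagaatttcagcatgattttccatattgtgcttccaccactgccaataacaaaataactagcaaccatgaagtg
CXCR4: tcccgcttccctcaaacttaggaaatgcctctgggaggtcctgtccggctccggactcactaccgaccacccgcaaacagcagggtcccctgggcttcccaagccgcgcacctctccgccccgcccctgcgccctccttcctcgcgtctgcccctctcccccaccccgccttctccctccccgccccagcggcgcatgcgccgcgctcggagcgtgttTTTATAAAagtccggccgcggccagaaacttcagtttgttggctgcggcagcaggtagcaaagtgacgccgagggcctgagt
The motifs were the TATA box TATAAA, the FOXA core TGTTTAC and the GATA core AGATAA. The AFP window held TATAAA 29 bases before the start site and no match to the others. The CXCR4 window held TATAAA 30 bases before the start site, overlapping a match on the other strand, and none of the other motifs. Of 35116 RefSeq windows of the same length, 11.5% held TATAAA, 3.42% TGTTTAC and 10.3% AGATAA, on either strand. These are matches of letters and not shown to be bound.

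Gene-level read counts were available for 15 libraries with totals of 9.34 to 58.2 M counts, in which 15713 to 21682 genes had at least 10 counts. A count of 3, taken as the floor of a library, equalled 0.0503 to 0.308 CPM (counts scaled to a common library size, with TMM correction for composition). Intervals and floors cover counting error only, because reads copied by PCR and lacking molecular identifiers need not be separate molecules. The 6 FPM libraries stood apart: genes annotated as antisense took 0.942% to 1.499% of their counts, against 0.274% to 0.319% in the other 9 libraries. Of the genes called higher than in UNT, 86.5% at FPM_IC25 and 87% at FPM_IC50 had exons that overlap exons of a gene on the other strand, against 40.6% of the tested genes. SOX17, FOXA2, AFP and CXCR4 have no opposite-strand gene within 5 kb. APOA1 exons overlap APOA1-AS, FOXA1 exons overlap TTC6, HNF4A lies over HNF4A-AS1 and TTR lies near DSG2-AS1. Whether the counting used strand is not given in the sources used here, so values of these 4 in FPM libraries are uncertain, and the part of opposite-strand reads in them was not tested. As a check of the cell label, the osteoblast genes RUNX2 (3.51 to 8.02 CPM over the libraries), COL1A1 (203 to 420 CPM), ALPL (63.9 to 166 CPM), SPP1 (225 to 551 CPM) and SP7 (0.495 to 1.78 CPM) were above the floor in every library, whereas IBSP, the bone sialoprotein gene, had 0 to 3 counts. This marker set was picked after the data had been seen.

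**Figure D1:**
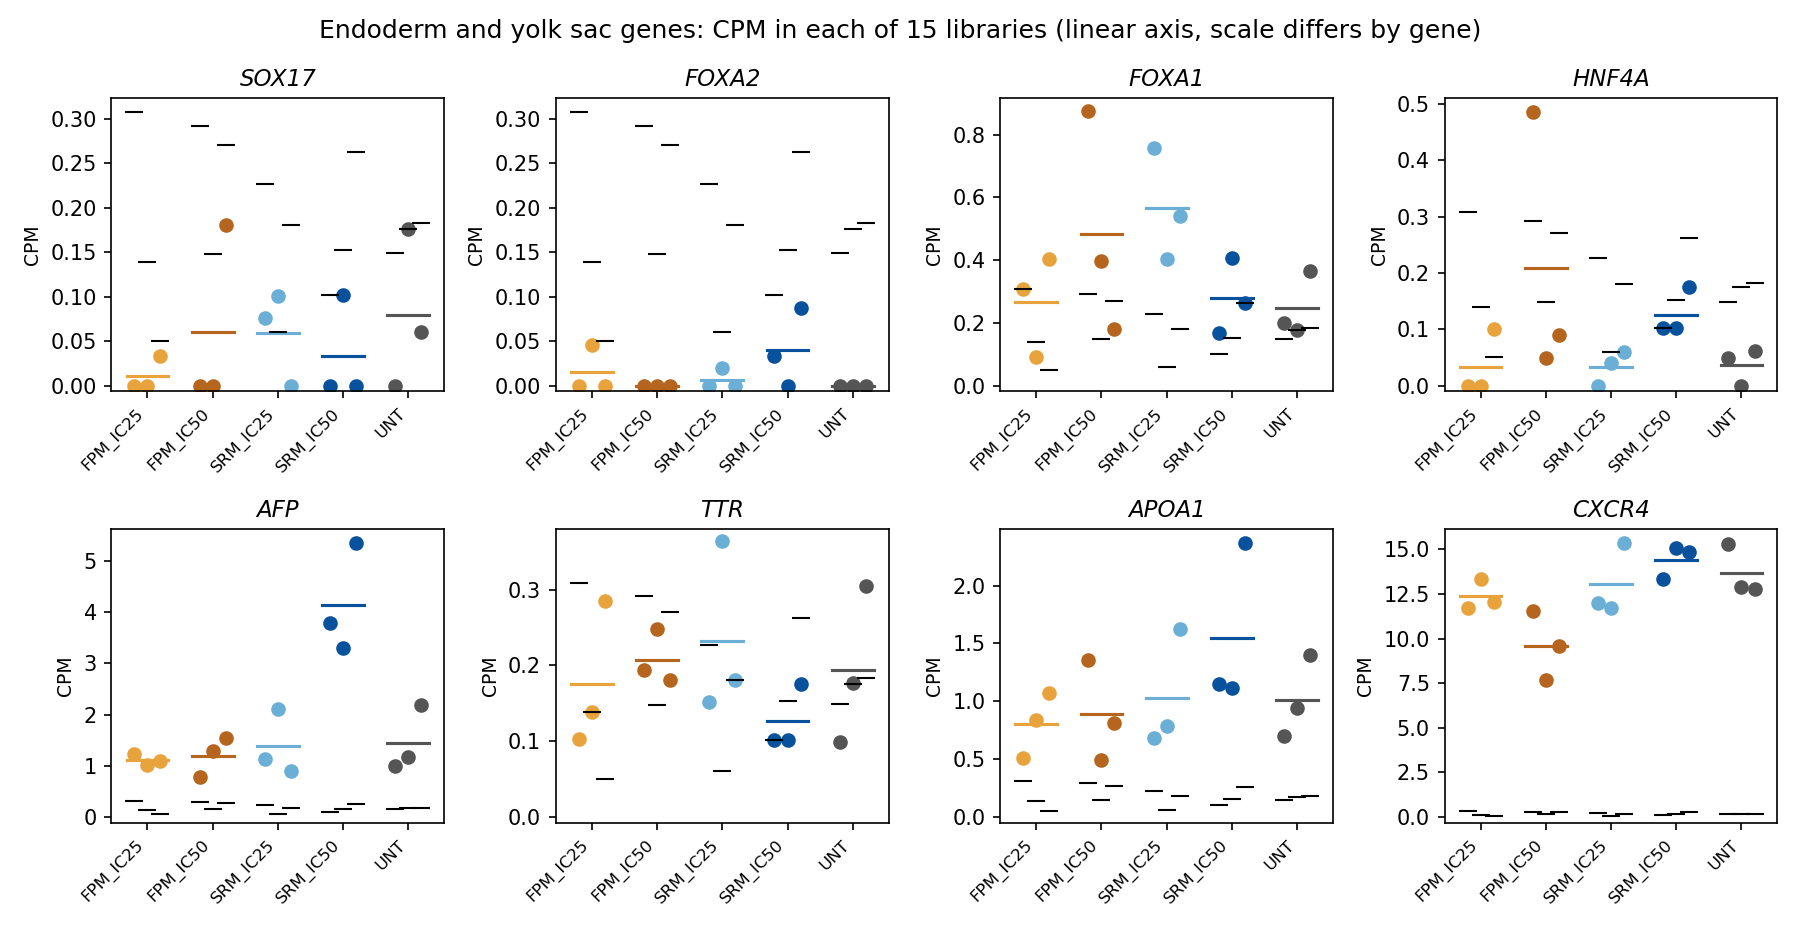
Level of each of the 8 members in CPM (y axis, linear, its own scale per gene) in the 15 libraries by group (x axis), with points for libraries, coloured lines for group means and short black dashes for the floor of 3 counts in each library. SOX17, FOXA2 and HNF4A sit mostly at or below the dashes, while CXCR4 lies between 7.67 and 15.4 CPM and AFP stands higher in the 3 SRM_IC50 libraries (3.31 to 5.36 CPM) than in the other 12.

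The transcription factor genes SOX17, FOXA2 and HNF4A were at or near the limit of detection in every group. SOX17, a SOX-family factor of definitive endoderm and of arterial endothelium (chromosome 8, 54457935 to 54460888, GRCh38), had 16 counts in the whole series and none in 8 of the 15 libraries. It had 0, 0 and 2 counts at FPM_IC25, 0, 0 and 2 at FPM_IC50, 1, 5 and 0 at SRM_IC25, 0, 2 and 0 at SRM_IC50, and 0, 3 and 1 in UNT. All groups overlapped, and the 5 counts in replicate 2 of SRM_IC25 were the only value above a library's floor of 3. Pooled over 3 libraries the level was 0.0330 CPM at SRM_IC50 (95% exact Poisson interval 0.0040 to 0.119) and 0.0747 CPM in UNT (0.0203 to 0.191).

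FOXA2, a pioneer factor of endoderm, notochord and floor plate (chromosome 20, 22581005 to 22585455), had the fewest counts of the 8 members, 4 in all. They came from 1 library of FPM_IC25, 1 of SRM_IC25 and 2 of SRM_IC50, with 1 count each. All 3 FPM_IC50 libraries and all 3 UNT libraries had 0 counts. The floor of 3 counts over a group equals 0.0722 CPM at FPM_IC50 and 0.0560 CPM in UNT, and the upper ends of the 95% exact Poisson intervals are 0.0888 CPM at FPM_IC50 and 0.0689 CPM in UNT. No difference in FOXA2 was detectable at this depth.

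HNF4A, the nuclear receptor at the head of the hepatocyte program (chromosome 20, 44355700 to 44434596), had 25 counts in all and none in 4 libraries. Its highest count was 6, in the FPM_IC25 library with the most counts, where it equalled 0.101 CPM. In CPM its highest value was 0.486, from 5 counts in replicate 1 of FPM_IC50. The SRM_IC50 libraries had 3, 2 and 2 counts, against 1, 0 and 1 in UNT, so every SRM_IC50 library lay above every UNT library in CPM, at 3 counts or fewer, as did 14.1% of tested genes. The pooled exact Poisson intervals, 0.0465 to 0.238 CPM at SRM_IC50 and 0.0045 to 0.135 CPM in UNT, overlapped. Against SRM_IC25 the SRM_IC50 libraries did not overlap either (19.4% of tested genes lay wholly higher), again at 0 to 3 counts a library.

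FOXA1, the paralog of FOXA2 that is also used in many epithelia (chromosome 14, 37589984 to 37596059), had 2 to 24 counts in each of the 15 libraries. It lay below the floor of 3 counts in FPM_IC25 replicate 2 and FPM_IC50 replicate 3, with 2 counts each. FPM_IC25 replicate 1, SRM_IC50 replicate 3 and UNT replicate 2 were at the floor. Its values were 0.308, 0.0927 and 0.403 CPM at FPM_IC25, 0.875, 0.396 and 0.181 CPM at FPM_IC50, and 0.756, 0.404 and 0.542 CPM at SRM_IC25. They were 0.169, 0.407 and 0.264 CPM at SRM_IC50 and 0.199, 0.176 and 0.366 CPM in UNT. The SRM_IC25 libraries were all above the UNT libraries, as were 11.3% of tested genes, whereas the other exposed groups overlapped UNT. The FPM_IC25 libraries were all below the SRM_IC25 libraries, by 0.403 against 0.404 CPM at the closest, as were 10% of tested genes. With the filter on low counts left out (40668 genes tested), FOXA1 at SRM_IC25 against UNT had an adjusted p of 0.411, and in no comparison was FOXA1, SOX17, FOXA2, HNF4A or TTR called.

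Among the secreted products, AFP was higher at SRM_IC50 than in UNT, and all 3 SRM_IC50 libraries lay above the other 12. AFP (ENSG00000081051, chromosome 4, 73431138 to 73456174, plus strand; the RefSeq start site shown above lies within this GENCODE span) had 112, 65 and 61 counts at SRM_IC50, against 20, 20 and 36 in UNT. In CPM these were 3.79, 3.31 and 5.36 at SRM_IC50 and 0.994, 1.17 and 2.19 in UNT. The lowest SRM_IC50 library lay above the highest UNT library, as it did for 14.1% of tested genes. The mean was 4.15 ± 1.07 CPM at SRM_IC50 and, in UNT, 1.45 ± 0.647 CPM (SD, n = 3), which is 2.83-fold (log2 1.5, SE 0.33, adjusted p = 0.00391). AFP was thus the single member called of the 3 tested at SRM_IC50 against UNT, where 17.6% of all tested genes were called and 7.96% were called higher.

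In the other exposed groups the difference of AFP from UNT did not pass the test. AFP was 1.23, 1.02 and 1.09 CPM at FPM_IC25, 0.778, 1.29 and 1.54 CPM at FPM_IC50, and 1.13, 2.10 and 0.903 CPM at SRM_IC25. The log2 fold changes against UNT were -0.39 at FPM_IC25 (adjusted p = 0.552), -0.23 at FPM_IC50 (adjusted p = 0.774) and 0.07 at SRM_IC25 (adjusted p = 0.928). All these groups overlapped UNT. FPKM are counts scaled to gene length and to a common library total. On that scale the mean of AFP was 0.3525 at FPM_IC25, 0.3782 at FPM_IC50 and 0.4149 at SRM_IC25. It was 1.25 ± 0.276 FPKM at SRM_IC50 and 0.430 ± 0.182 FPKM in UNT (SD, n = 3).

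AFP stood apart at the high SRM dose in the comparisons between doses and particles too. Against SRM_IC25 its log2 fold change at SRM_IC50 was 1.43 (SE 0.31, adjusted p = 0.00301), and the groups did not overlap (13.7% of tested genes were called higher and 19.4% did not overlap upward). Between particles, FPM_IC50 minus SRM_IC50 was -1.73 on the log2 scale (SE 0.35, adjusted p = 0.000847), without overlap, in a comparison where 16.2% of tested genes were called lower and 20.2% did not overlap downward. FPM_IC50 against FPM_IC25 gave 0.15 (SE 0.39, adjusted p = 1). The difference between the 2 dose effects, SRM minus FPM, was 1.27 on the log2 scale (SE 0.50) and missed the threshold (adjusted p = 0.106; 14.6% of tested genes passed). The comparisons of SRM_IC50 with UNT, with SRM_IC25 and with FPM_IC50 share the 3 SRM_IC50 libraries and are not independent of each other.

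TTR (chromosome 18, 31557010 to 31599021) and APOA1 (ENSG00000118137, chromosome 11, 116835751 to 116837950) did not join AFP: TTR was too low to be tested and APOA1 was not called. TTR had 70 counts in all, 1 to 18 per library. It measured 0.102, 0.102 and 0.176 CPM at SRM_IC50, which lay within the range of the UNT libraries at 0.0994, 0.176 and 0.305 CPM. In the other exposed groups TTR ranged from 0.103 to 0.364 CPM. The FPM_IC50 libraries (0.195, 0.247 and 0.181 CPM) were all above the SRM_IC50 libraries, as were 26.4% of tested genes, at 2 to 5 counts against 2 to 3.

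APOA1 was 1.15, 1.12 and 2.37 CPM at SRM_IC50, against 0.696, 0.939 and 1.40 CPM in UNT. Replicate 3 of SRM_IC50 was the highest of all 15 libraries, and the groups overlapped. The log2 fold change was 0.54 (SE 0.42, adjusted p = 0.467), and it was 0.19 without that library. APOA1 was 0.514, 0.834 and 1.07 CPM at FPM_IC25, 1.36, 0.495 and 0.814 CPM at FPM_IC50, and 0.680, 0.788 and 1.63 CPM at SRM_IC25. In the F test over the 5 groups AFP passed (adjusted p = 0.000609) and APOA1 did not (adjusted p = 0.504).

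CXCR4 was the most abundant member and the only one called lower than in UNT. CXCR4 (ENSG00000121966, chromosome 2, 136114349 to 136118165, minus strand), the receptor for the chemokine CXCL12, was 11.6, 7.67 and 9.58 CPM at FPM_IC50, against 15.3, 12.9 and 12.8 CPM in UNT. Every FPM_IC50 library lay below every UNT library, as held for 10.4% of tested genes. The mean was 9.61 ± 1.95 CPM at FPM_IC50 and 13.7 ± 1.42 CPM in UNT (SD, n = 3), which is 0.691-fold (log2 -0.53, SE 0.15, adjusted p = 0.0251). It was the only one of 3 tested members called at FPM_IC50 against UNT, where 13.6% of tested genes were called and 2.77% were called lower. This call rested on single libraries: the adjusted p was 0.17 without FPM_IC50 replicate 2, 0.0593 without FPM_IC50 replicate 3 and 0.0878 without UNT replicate 1. It was 0.208 with a log2 fold change of -0.47 when only genes free of an opposite-strand neighbour (within 5 kb) were fitted. Of the 16 alternatives 8 lost the call.

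In the other groups CXCR4 was not called against UNT. It was 11.7, 13.4 and 12.03 CPM at FPM_IC25, 12.02, 11.7 and 15.4 CPM at SRM_IC25, and 13.3, 15.1 and 14.8 CPM at SRM_IC50. Their log2 fold changes against UNT were -0.14 (adjusted p = 0.58), -0.08 (adjusted p = 0.792) and 0.07 (adjusted p = 0.825), and all 3 groups overlapped UNT. FPM_IC50 was lower than SRM_IC50 by a log2 difference of -0.60 (SE 0.15, adjusted p = 0.00442), without overlap (16.2% of tested genes were called lower and 20.2% lay wholly lower). CXCR4 also lay lower in every FPM_IC50 library than in every FPM_IC25 library (log2 -0.39, SE 0.15), but the adjusted p was 1 in a comparison where 0.0105% of genes were called and 4.01% lay wholly lower. The F test over the 5 groups gave an adjusted p of 0.0327, and the difference between the dose effects, SRM minus FPM, was 0.54 (SE 0.21, adjusted p = 0.101).

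**Figure D2:**
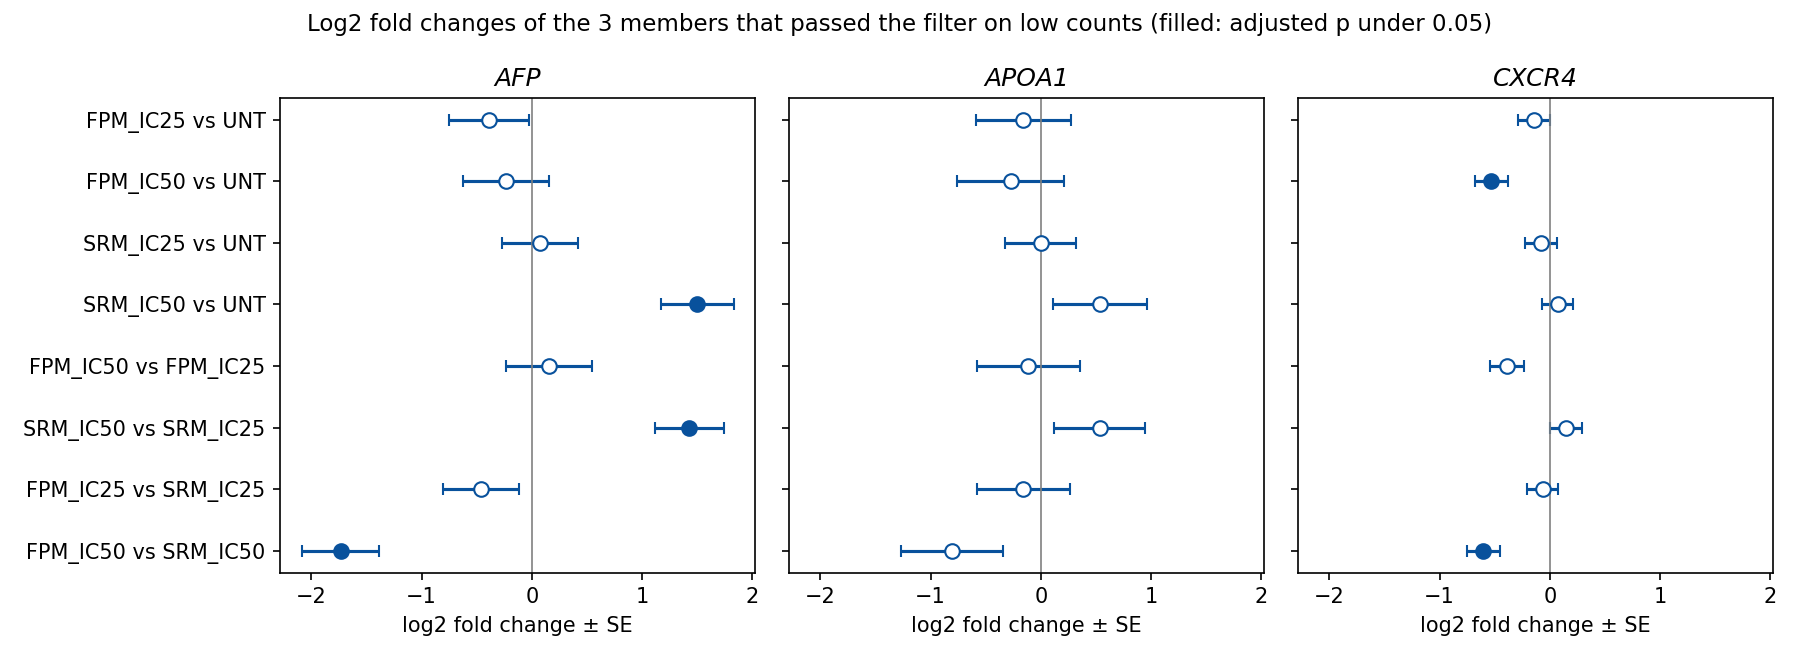
Log2 fold change (x axis, bars show the standard error) of AFP, APOA1 and CXCR4 in the 8 comparisons (y axis, first group minus second), with filled points where the adjusted p was under 0.05. AFP is filled in the 3 comparisons that involve SRM_IC50 and CXCR4 in FPM_IC50 against UNT and against SRM_IC50.

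Members were called in 4 of the 8 comparisons. None of the 3 tested members was called by edgeR at FPM_IC25 against UNT (14.2% of tested genes called), at SRM_IC25 against UNT (4.37%), at FPM_IC50 against FPM_IC25 (0.0105%) or at FPM_IC25 against SRM_IC25 (10.5%). In these 4 comparisons DESeq2 also called 0, and at an unadjusted p under 0.05 the only one was CXCR4 in FPM_IC50 against FPM_IC25. AFP was called at SRM_IC50 against SRM_IC25 (26.9% of tested genes), and AFP and CXCR4 at FPM_IC50 against SRM_IC50 (39.3%). In the F test over the 5 groups 2 of 3 members passed, and 40.8% of tested genes did.

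Per gene length, the members spanned a wide range with CXCR4 at the top. Over the 15 libraries mean levels were 5.66 FPKM for CXCR4, 0.737 for APOA1, 0.565 for AFP, 0.0932 for FOXA1, 0.0857 for TTR, 0.0205 for SOX17, 0.0122 for HNF4A and 0.0047 for FOXA2. CXCR4 stood at percentile 65.4 of protein-coding genes in the tables, APOA1 at 38.2, AFP at 36 and FOXA2 at 11.6. In UNT the libraries of APOA1 (0.490 to 0.934 FPKM) and AFP (0.306 to 0.639 FPKM) overlapped, so their order is not separated there. TTR (0.0857 ± 0.0441 FPKM) and FOXA1 (0.0599 ± 0.0239 FPKM) overlapped likewise, as did FOXA1 and SOX17, and SOX17 and HNF4A. CXCR4 and APOA1, and AFP and TTR, did not overlap. At SRM_IC50 the mean of AFP (1.25 ± 0.276 FPKM) was above that of APOA1 (1.06 ± 0.446 FPKM), with overlapping libraries.

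The scavenger receptor of the CXCR4 axis fell at SRM_IC50, its ligand was lower by a call that single libraries decided, and CXCR4 itself did not pass the test. ACKR3, the atypical receptor that takes up CXCL12, was 10.3, 10.1 and 9.31 CPM at SRM_IC50, against 28.6, 30.8 and 35.5 CPM in UNT. The groups lay far apart, at log2 -1.67 (SE 0.14, adjusted p = 4.02e-07). CXCL12, the ligand, was 10.97, 13.4 and 11.9 CPM at SRM_IC50, against 15.1, 17.6 and 16.8 CPM in UNT (log2 -0.45, SE 0.13, adjusted p = 0.0253). The CXCL12 call was lost in 4 of 16 alternatives, those without SRM_IC50 replicate 1, SRM_IC50 replicate 3, UNT replicate 2 or UNT replicate 3 (adjusted p of up to 0.121). At FPM_IC50, where CXCR4 was lower, ACKR3 (log2 0.24, adjusted p = 0.285) and CXCL12 (log2 0.13, adjusted p = 0.604) did not pass the test. At FPM_IC25 and SRM_IC25 neither gene passed, with log2 fold changes of 0.07 to 0.38. The highest of these, CXCL12 at FPM_IC25 (adjusted p = 0.0621), came without overlap of the groups. It was called higher in 6 of 16 alternatives (adjusted p down to 0.0143).

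Genes of Nodal signalling, which induces endoderm, were called in both directions at SRM_IC50, and their part in the AFP difference was not tested. Of 12 genes 11 were tested, and 3 were higher and 1 lower, with a median log2 fold change of 0.07 against 0.00 over all tested genes. At SRM_IC50 against UNT 17.6% of all tested genes were called. NODAL, the ligand, was 3.22, 2.14 and 3.07 CPM at SRM_IC50 and 0.447, 1.06 and 1.16 CPM in UNT, which gave log2 1.69 (SE 0.29, adjusted p = 0.000552). Its co-receptor TDGF1 was 98.4, 94.3 and 114 CPM at SRM_IC50 and 17.99, 21.2 and 15.2 CPM in UNT (log2 2.49, SE 0.14, adjusted p = 1.48e-08). FOXH1, the DNA-binding partner of SMAD2, had 14.4 ± 0.640 CPM at SRM_IC50 and, in UNT, 3.92 ± 0.565 CPM (SD, n = 3; log2 1.86). SMAD2 itself was lower (log2 -0.34, adjusted p = 0.00262). In the same list LEFTY2 (log2 -0.96, adjusted p = 0.207) and CER1 (log2 0.58, adjusted p = 0.316) did not pass the test. TDGF1 also belongs to the pluripotency list and has near-identical copies in the genome, and exons of NODAL, TDGF1 and FOXH1 overlap genes on the other strand, so their values carry that uncertainty.

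Of 16 endoderm regulators 11 were tested at SRM_IC50 against UNT and 2 were called, both lower. Of all tested genes 17.6% were called there. The median log2 fold change was 0.33 over the 11 and 0.14 over the 10 with a UNT mean above 0, against 0.00 over all tested genes. SOX7, the SOX-family relative of SOX17 in primitive endoderm and endothelium, was 0.914, 1.22 and 1.67 CPM at SRM_IC50 and 5.67, 6.34 and 7.74 CPM in UNT (log2 -2.46, SE 0.28, adjusted p = 8.79e-06). GATA6, a factor of primitive endoderm that also marks lateral mesoderm and amnion, was 1.19, 1.63 and 2.02 CPM at SRM_IC50 and 5.27, 5.34 and 7.55 CPM in UNT (log2 -1.97, SE 0.23, adjusted p = 1.18e-05). In both genes all 3 SRM_IC50 libraries lay below the lowest library of every other group. Among the regulators that were not tested, GSC, GATA4, HNF4G and ONECUT1 had at most 26 counts per group.

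Of the 25 yolk sac and liver products other than the members, 14 were tested at SRM_IC50 against UNT. Of these 1 was higher and 2 were lower, with a median log2 fold change of 0.07. The share called among all tested genes was 17.6%. VIL1, which encodes villin of the brush border, had 8.25 ± 0.756 CPM at SRM_IC50 and, in UNT, 3.55 ± 0.943 CPM (SD, n = 3; log2 1.20, SE 0.20, adjusted p = 0.00046); its exons overlap USP37. LRP2, the endocytic receptor megalin of visceral endoderm, averaged 111 ± 32.6 CPM at SRM_IC50 and 235 ± 50.3 CPM in UNT (log2 -1.08, SE 0.22, adjusted p = 0.00211). DAB2, its endocytic adaptor, had a log2 fold change of -0.38 (adjusted p = 0.0334), a call lost in 7 of 16 alternatives (adjusted p of up to 0.131), among them those without SRM_IC50 replicates 2 or 3 and UNT replicates 1 or 2. ALB, the adult counterpart of AFP in blood, was not tested: it had 10 counts over the 3 SRM_IC50 libraries and 7 over the UNT libraries. The fibrinogen genes FGB and FGG had 0 counts in all 15 libraries. ALB, FGB and FGG were picked after their values had been seen.

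Of 8 regional factors of the gut 4 were tested at SRM_IC50 and called lower, with a median log2 fold change of -1.87. CDX2, NKX2-3 and CDX1 were called lower under every alternative run. Among all 19012 tested genes 17.6% were called at SRM_IC50 against UNT, and 1824 were called lower. CDX2, a hindgut factor that trophoblast also expresses, had 0.670 ± 0.145 CPM at SRM_IC50 and, in UNT, 2.83 ± 0.623 CPM (SD, n = 3; log2 -2.08, adjusted p = 5.95e-05). NKX2-3 (log2 -2.40, adjusted p = 0.000353) and CDX1 (log2 -1.66, adjusted p = 0.000559), both expressed in gut, fell as well. PAX9, a factor of the pharyngeal pouches, had 8 counts in the SRM_IC50 libraries and 23 in UNT (log2 -1.65, adjusted p = 0.0355). Its call was lost in 10 of 15 alternatives, among them DESeq2 and the removal of any library but SRM_IC50 replicate 3, with adjusted p of up to 0.253 and a log2 fold change of -0.064 on the log2(FPKM + 1) scale.

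**Figure D3:**
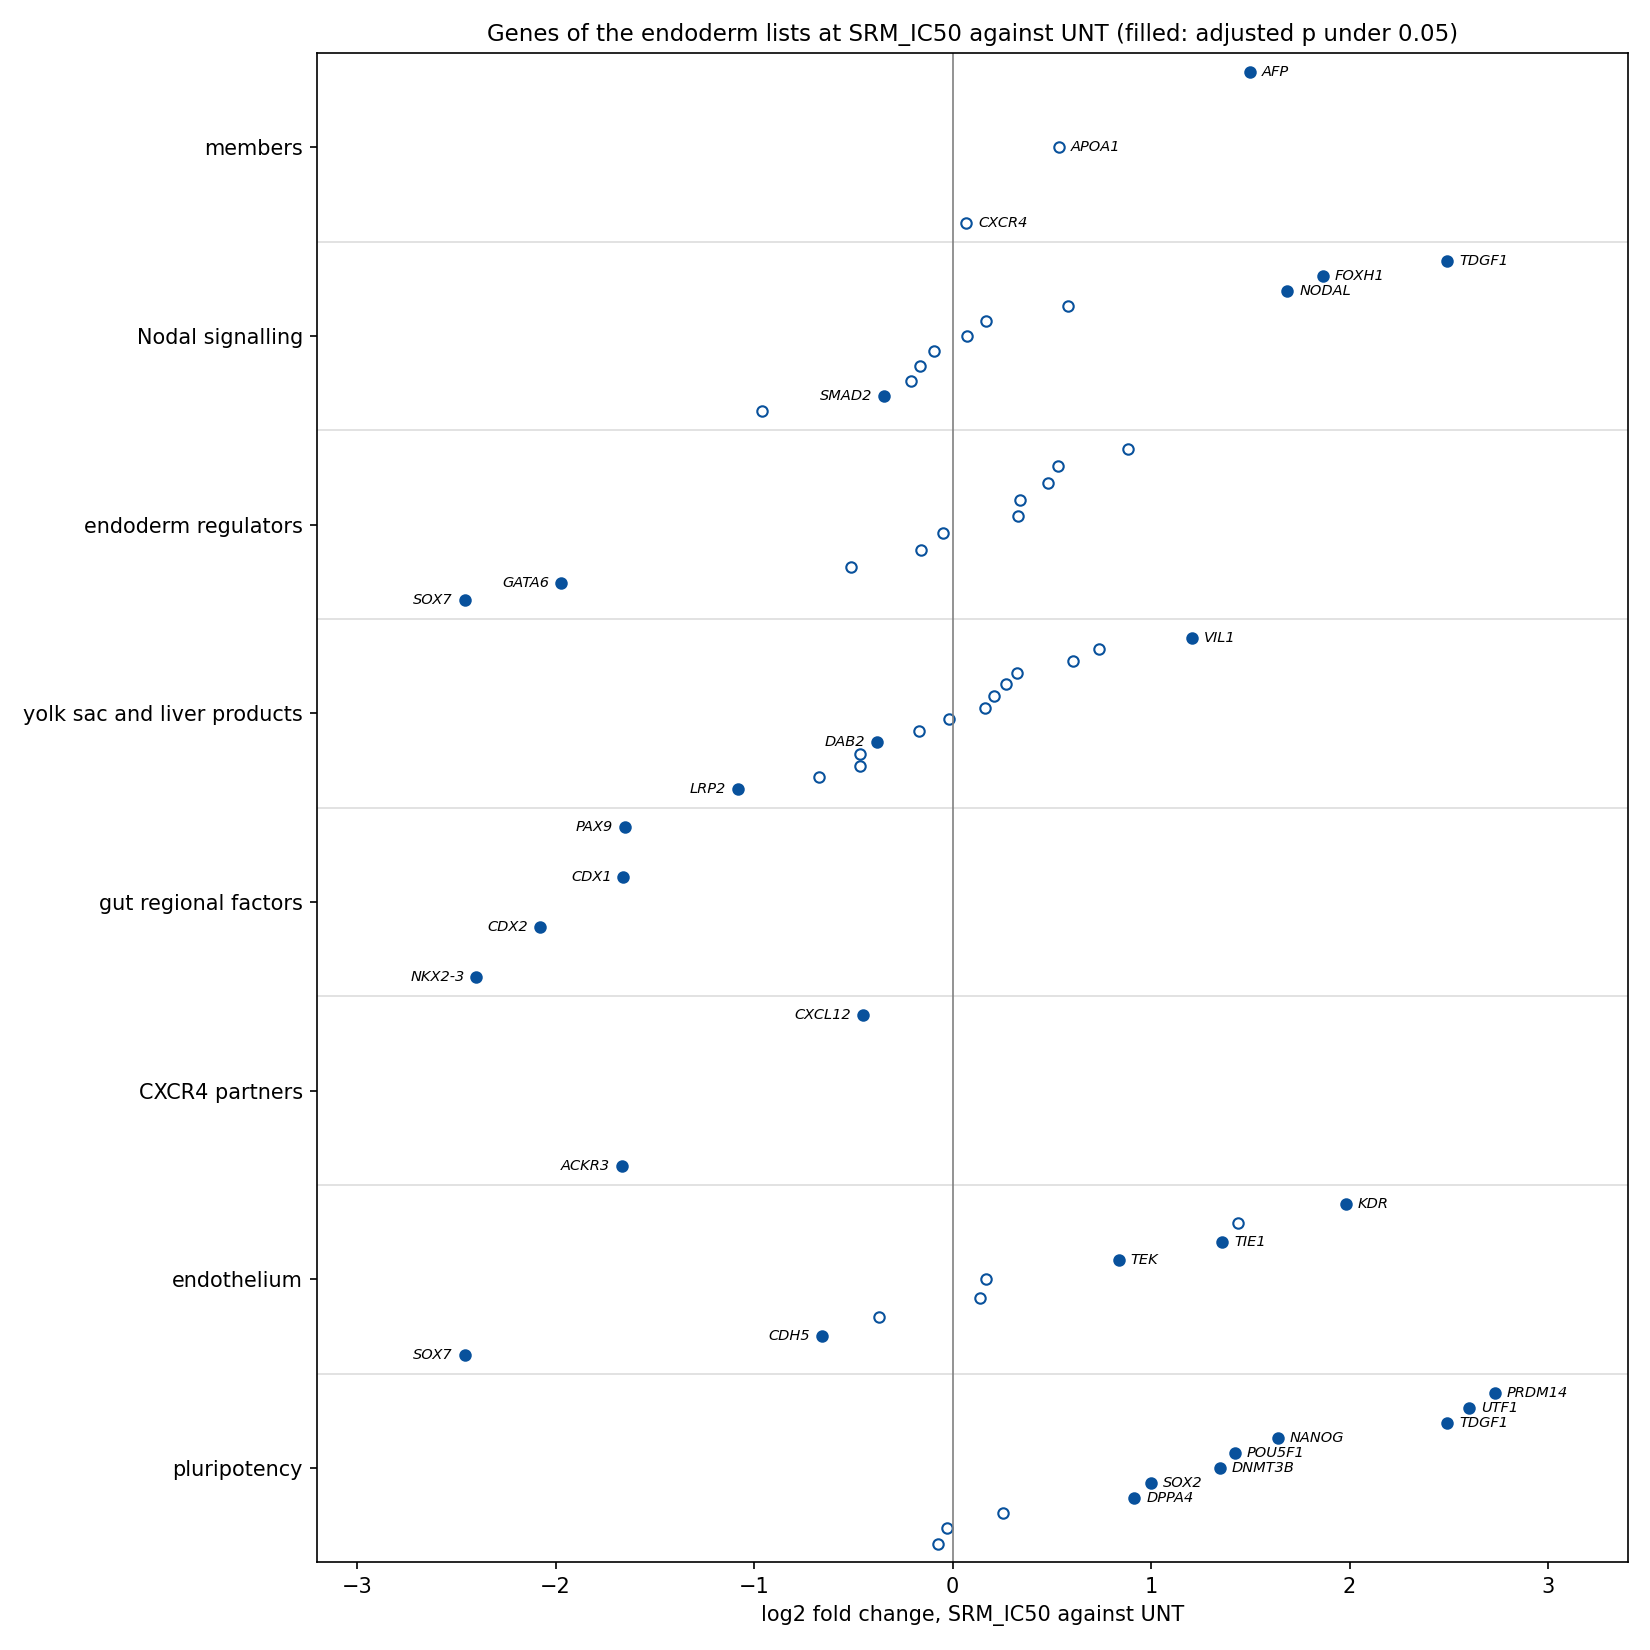
Log2 fold change at SRM_IC50 against UNT (x axis) of tested genes in 8 lists (y axis; genes with a UNT mean of 0 are not drawn), filled where the adjusted p was under 0.05. AFP, NODAL, TDGF1 and FOXH1 lie to the right, and SOX7, GATA6 and the 4 tested gut factors lie to the left.

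Markers of other cell types moved in the same SRM_IC50 libraries, and their part in the AFP difference was not tested. Against UNT 17.6% of all 19012 tested genes were called at this dose, 1513 higher and 1824 lower. Of 11 pluripotency genes 8 were called, all higher, and their summed level was 2962 to 3417 CPM at SRM_IC50 and 1897 to 2133 CPM in UNT. Among them PRDM14 (log2 2.73), NANOG (1.64) and DPPA4 (0.92) rose, and none of the 11 was at 0 in either group. Of 13 amnion and trophoblast genes 12 were lower, including CYP19A1 (log2 -4.88), CGA (-5.79), GATA2 (-2.61) and GABRP (-2.57), with sums of 428 to 476 CPM at SRM_IC50 and 1539 to 1825 CPM in UNT. Of 8 lateral and extraembryonic mesoderm genes all 6 tested were lower, including HAND1, LUM, DCN and GATA6, with sums of 130 to 160 CPM at SRM_IC50 and 466 to 603 CPM in UNT. The anterior neural list had 5 of 6 lower, with sums of 93.7 to 101 CPM at SRM_IC50 and 243 to 287 CPM in UNT. In bulk libraries fewer cells of a type and less RNA per cell cannot be told apart.

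Cell types that share members with endoderm were also followed at SRM_IC50 against UNT, where 17.6% of all tested genes were called. Endothelium, which expresses CXCR4 and SOX17, had 3 of 9 tested genes higher and 2 lower: the receptor genes KDR (log2 1.98, adjusted p = 5.44e-06), TIE1 (1.36) and TEK (0.84) rose, and SOX7 and CDH5 (-0.66; outside the naming rule) fell. The summed level of its 10 genes was 95.5 to 131 CPM at SRM_IC50 and 55.3 to 68.1 CPM in UNT. That sum was led by KDR (mean of 46.7 CPM at SRM_IC50 and 11.8 CPM in UNT) and TEK (55.1 and 30.95 CPM). CDH5 (3.65 and 5.68 CPM) and SOX7 (1.27 and 6.58 CPM) went the other way, so the sum does not stand for the whole list. Primordial germ cells also express CXCR4. Of 6 tested genes in that list PRDM14 was higher, and TFCP2L1 (-1.38), TFAP2C (-0.42) and KIT (-0.35; lost in 9 of 16 alternatives) were lower, with sums of 109 to 128 CPM at SRM_IC50 and 128 to 134 CPM in UNT. Floor plate, which expresses FOXA2, had NTN1 (0.66) and SPON1 (0.58) higher of 5 tested and sums of 71.7 to 82.0 CPM at SRM_IC50 and 48.0 to 63.2 CPM in UNT. Retinal pigment epithelium and choroid plexus, which make TTR, had DCT (-3.69), TYRP1 (-1.73) and MITF (-0.59) lower of 11 tested, with overlapping sums of 401 to 433 CPM at SRM_IC50 and 419 to 460 CPM in UNT.

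At the FPM doses the yolk sac and liver genes called higher were AMN, VIL1 and APOM, and exons of each overlap a gene on the other strand. The part of opposite-strand reads in them was not tested. AMN, a partner of cubilin in protein uptake, averaged 9.15 ± 1.44 CPM at FPM_IC25, 10.9 ± 2.23 CPM at FPM_IC50 and 0.765 ± 0.165 CPM in UNT, with exons overlapping CDC42BPB. VIL1 (log2 1.52 at FPM_IC25 and 1.75 at FPM_IC50), whose exons overlap USP37, and the apolipoprotein gene APOM (1.07 and 1.26), whose exons overlap BAG6, were higher as well. The APOM call at FPM_IC25 was lost in 3 of 15 alternatives.

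FOXA3, GPC3 and TDGF1 were called lower at an FPM dose, and these calls depended on the alternative. FOXA3, the third FOXA paralog, averaged 6.48 ± 0.521 CPM at FPM_IC25, 6.61 ± 1.26 CPM at FPM_IC50 and, in UNT, 9.10 ± 1.09 CPM (SD, n = 3). The log2 fold change was -0.47 at both doses (adjusted p = 0.0344 at FPM_IC25 and 0.0459 at FPM_IC50), and the FPM_IC50 libraries overlapped UNT. The FOXA3 call was lost in 8 of 15 alternatives at FPM_IC25 (adjusted p of up to 0.166) and in 9 of 15 at FPM_IC50 (up to 0.211), among them, at both doses, those without UNT replicate 2 or 3. GPC3, a glypican of fetal liver and yolk sac, was lower at FPM_IC25 (log2 -0.40, adjusted p = 0.0146), as was TDGF1 (-0.59, adjusted p = 0.0113). Of 15 alternatives each, 4 lost the GPC3 call (adjusted p of up to 0.0958) and 3 the TDGF1 call (up to 0.0982). The yolk sac and liver list had 3 of 14 tested higher and 1 lower at FPM_IC25, and 3 called, all higher, at FPM_IC50. The shares called among all tested genes were 14.2% at FPM_IC25 and 13.6% at FPM_IC50. Of the endoderm regulators FOXA3 was lower at each dose.

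Markers of other cell types at FPM_IC50 are given beside the CXCR4 difference, and their part in it was not tested. Against UNT 13.6% of all tested genes were called at this dose. The endothelial list had sums of 57.1 to 60.9 CPM at FPM_IC50 and 55.3 to 68.1 CPM in UNT. The germ cell list had DND1 higher (exons overlapping WDR55) and PRDM14 lower (log2 -0.87, adjusted p = 0.043), with sums of 130 to 146 CPM at FPM_IC50 and 128 to 134 CPM in UNT. The pluripotency list had 3 of 11 lower, SOX2 (-0.48), LIN28A (-0.35) and PRDM14, with sums of 1453 to 1793 CPM at FPM_IC50 and 1897 to 2133 CPM in UNT. At FPM_IC50 the amnion and trophoblast list had 4 of 13 higher, ERVW-1 (0.99), CYP19A1 (0.77), CGA (0.73) and GATA2 (0.455). CYP19A1 exons overlap MIR4713HG, ERVW-1 and GATA2 lie over genes on the other strand, and CGA lies near RN7SKP209. The part of opposite-strand reads in these 4 was not tested. The call of PRDM14 was lost in 7 of 16 alternatives, of LIN28A in 8 and of SOX2 in 1. Of 15 alternatives each, 7 lost the GATA2 call, 4 the CGA call and 2 the ERVW-1 call. The retinal pigment list summed to 728 to 987 CPM at FPM_IC50, against 419 to 460 CPM in UNT, of which BEST1, whose exons overlap FTH1, made up 453 ± 78.1 CPM at FPM_IC50 and 1.74 ± 0.601 CPM in UNT.

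At SRM_IC25, where no member was called, few genes around them were called. TDGF1 was the only gene called in the Nodal, regulator, yolk sac and gut lists (log2 -0.59, SE 0.15, adjusted p = 0.0375), at 10.5, 13.7 and 11.3 CPM against 17.99, 21.2 and 15.2 CPM in UNT. LIN28A (-0.51), DPPA4 (-0.31) and L1TD1 (-0.60) of the pluripotency list were lower. In the retinal pigment list BEST1, whose exons overlap FTH1, was higher, at 6.95 ± 3.23 CPM at SRM_IC25 and 1.74 ± 0.601 CPM in UNT (SD, n = 3; log2 2.09, SE 0.379, adjusted p = 0.0175). Of these 5 calls 0 kept an edgeR adjusted p under 0.05 when each library was left out in turn.

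**Figure D4:**
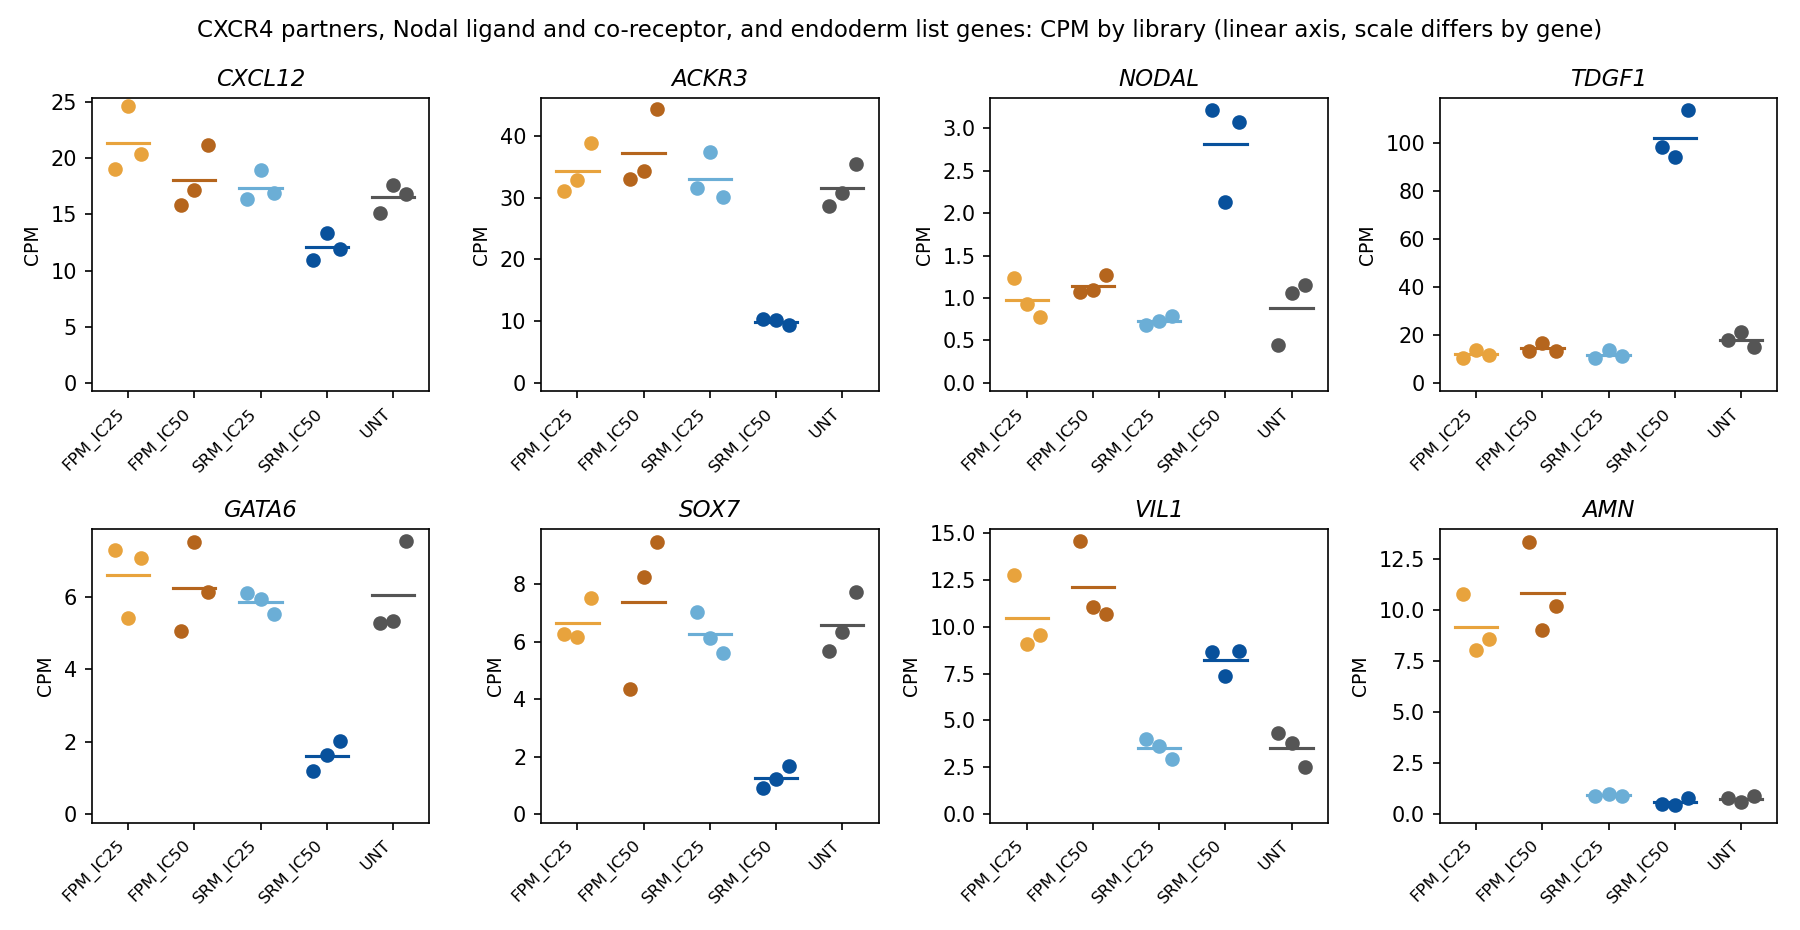
Level in CPM (y axis, linear, its own scale per gene) of the CXCR4 partners CXCL12 and ACKR3, of NODAL and TDGF1, and of GATA6, SOX7, VIL1 and AMN in the 15 libraries by group (x axis), with points for libraries and lines for group means. NODAL and TDGF1 are high in the 3 SRM_IC50 libraries, ACKR3, GATA6 and SOX7 are low there, VIL1 is high at both FPM doses and at SRM_IC50, and AMN is high in the 6 FPM libraries.

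The genes whose levels followed each tested member most closely over the 15 libraries were sought among 13593 protein-coding genes with a mean of at least 1 CPM. The measure was Pearson's r of log2 CPM, given as a description because the libraries share their groups and depth. AFP was followed most closely by FAM174B (r = 0.957), CNN1 (0.952), a smooth muscle calponin, and GDAP1L1 (0.941). Without the 3 SRM_IC50 libraries these were 0.809, 0.816 and 0.808 over 12 libraries. APOA1 was followed by CRADD (0.93), CAMK1 (0.921) and RPL17 (0.875), a ribosomal protein gene with near-identical copies. CXCR4 was followed by GLUL (0.909), the glutamine synthetase gene, NECAB2 (0.874) and ZIC1 (0.869), a neural transcription factor. Leaving out SRM_IC50 moved these to 0.93, 0.859 and 0.862.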

How the data were processed

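RNA of 15 libraries was measured by sequencing of polyadenylated RNA with a directional kit, per the labels' protocols. Per the submitters' processing notes, the authors used HISAT2 2.2.1, SAMtools 1.10, featureCounts of Subread 2.0.15, FastQC 0.11.7, DESeq2 and the build GRCh38; the annotation release, the strand setting and the handling of multiply mapped reads were not given in the sources used here. The authors deposited whole-number counts per gene and FPKM, which equal count over gene length and column total to within a relative gap of 4.81e-05. The tables hold 1 column of no sample, the gene length. Genes were placed and named with GENCODE 29 and a table of gene names.

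Counts were fitted with edgeR 4.0.16 in R 4.3.3 (TMM, filterByExpr with a minimum of 10 counts, robust quasi-likelihood, 5 group means, all 15 libraries), with Benjamini-Hochberg adjustment over 19012 genes and a threshold of 0.05. An adjusted p with no tool named comes from this fit, and an SE is the log2 fold change over the square root of F. CPM use the TMM-scaled library size. Related genes were named by a rule: up to 4 called genes of each list with the smallest p in each comparison with UNT. The rule also names CXCL12 and ACKR3. ALB, FGB, FGG, CDH5, LEFTY2, CER1 and the osteoblast genes fall outside it. In the figure of list genes, tested genes with a UNT mean above 0 are drawn. Some listed genes are not reported here. Members, lists and tests were chosen with earlier results of these data known. Alternatives were DESeq2 1.42.0, its size factors, no filter, a replicate block, limma 3.58.1 on log2(FPKM + 1) and log2(FPKM + 0.1), the groups compared alone and each library left out. A GC correction, without and with the block, and a restriction to genes free of an opposite-strand neighbour (5 kb) were added after seeing the data. Replicates had r of 0.982 to 0.994 for log2 CPM and chi-square values of 5.42 or more a gene, and each library was counted once.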

Additional observations from a re-analysis of the deposited data

Results flagged for a closer look

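AFP and CXCR4 differed between the particles at the higher inhibitory level, by a test of the difference itself. For AFP, FPM_IC50 minus SRM_IC50 was -1.73 on the log2 scale (SE 0.35, edgeR adjusted p = 0.000847), with 0.778 to 1.54 CPM in the 3 FPM_IC50 libraries and 3.31 to 5.36 CPM in the 3 SRM_IC50 libraries. For CXCR4 it was -0.60 (SE 0.15, edgeR adjusted p = 0.00442), with 7.67 to 11.6 CPM at FPM_IC50 and 13.3 to 15.1 CPM at SRM_IC50. The doses were 1.4 µg/mL of FPM and 5.9 µg/mL of SRM. Neither gene has an opposite-strand gene within 5 kb, and over genes of that kind alone the differences were -1.66 (adjusted p = 0.00129) and -0.53 (adjusted p = 0.0122).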

How the results depend on the processing

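AFP was called at SRM_IC50 against UNT under all 16 alternatives, with log2 fold changes of 0.65 to 1.92 and adjusted p of at most 0.0245; the lowest value is on the log2(FPKM + 1) scale, which understates changes of low genes. The AFP and CXCR4 differences between FPM_IC50 and SRM_IC50 also passed in all 16 (adjusted p of at most 0.00537 and 0.0375). The single member changed at FPM_IC50 against UNT, CXCR4, was not called (count of 0) on log2(FPKM + 1), on log2(FPKM + 0.1), with the groups compared alone and with the GC correction; leaving out a library gave 0 to 1. Of the 2 members that differed among the 5 groups, 1 passed on either FPKM scale, and 1 to 2 when a library was left out (1 without FPM_IC50 replicate 2, FPM_IC50 replicate 3 or SRM_IC50 replicate 2). The cause was not tested.

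Values that turned in sign were uncalled throughout. APOA1 at SRM_IC25 against UNT (0.00) was 0.032 with DESeq2, 0.012 with its size factors, 0.012 without the filter, 0.019 with the replicate block, 0.01 on log2(FPKM + 1) and 0.001 on log2(FPKM + 0.1); AFP there (0.07) was -0.016 and -0.05 on the FPKM scales; CXCR4 there (-0.08) was 0.041 with the GC correction, without and with the block. APOA1 at FPM_IC50 against FPM_IC25 (-0.11) was 0.045 with the replicate block, 0.059 with block and GC correction, and 0.046 and 0.08 on the FPKM scales. Leaving out a library gave ranges of -0.613 to 0.039 (AFP), -0.47 to 0.16 (APOA1) at FPM_IC25 against UNT; -0.46 to 0.18 (AFP), -0.68 to 0.11 (APOA1) at FPM_IC50 against UNT; -0.49 to 0.50 (AFP), -0.40 to 0.31 (APOA1), -0.20 to 0.019 (CXCR4) and -0.022 to 0.174 (ACKR3) at SRM_IC25 against UNT; -0.008 to 0.342 (AFP), -0.53 to 0.27 (APOA1) at FPM_IC50 against FPM_IC25; and -0.66 to 0.12 (AFP), -0.47 to 0.25 (APOA1), -0.15 to 0.07 (CXCR4) at FPM_IC25 against SRM_IC25.

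Deviations of same-numbered replicates had r over 0.1 in 16 of 30 pairs of groups (-0.14 to 0.438), and in 9 of 10 for number 3. Pairing was taken only where labels gave it or every pair passed 0.1, so the numbers were not used as pairs. With the replicate block, genes changed at SRM_IC25 against UNT were 2718 in place of 831, and at FPM_IC25 against UNT 4079 in place of 2693; no call of a member changed with the block alone, and with block and GC correction APOA1 was called at FPM_IC50 against SRM_IC50 (-0.88, adjusted p = 0.0435). Of the genes named beside the members, 36 of 40 calls at SRM_IC50, 8 of 14 at FPM_IC50, 14 of 20 at FPM_IC25 and 0 of 5 at SRM_IC25 held when each library was left out. Counts of changed genes ran from 0 to 2718 at SRM_IC25 against UNT and from 0 to 116 at FPM_IC50 against FPM_IC25 (2 in the main result). With only genes free of an opposite-strand neighbour fitted, against UNT, they were 45 at FPM_IC25 and 16 at FPM_IC50 (2585 over all genes). At SRM_IC50 they were 1057 (3337 over all genes). That fit held fewer genes than the main one, so its counts do not have the same base. Depth limits SOX17, FOXA2 and HNF4A, whose counts lie near the floor, and FOXA1 and TTR, which did not pass the filter on low counts.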
